A study of Mus musculus with 12 samples.

Results

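The genes described here are 9 genes of the PI3K, Akt and Foxo pathway in mouse regulatory T cells (Treg): *Foxo1*, *Foxo3*, *Pik3ip1*, *Pik3cd*, *Inpp5d*, *Phlpp1*, *Akt1*, *Sesn1* and *Sesn3*. They were chosen by symbol, taking the gene identifier of highest mean TPM for each symbol, and make up 9 of the 36222 genes in the deposited table. The study's RNA-seq comprises 12 libraries, 3 for each combination of genotype and stimulation. Wild-type (WT) Treg came from Foxp3-YFP-Cre mice, and Ikzf1 conditional knockout (cKO) Treg came from Ikzf1-fl-Foxp3-YFP-Cre mice, in which the floxed *Ikzf1* gene of the transcription factor Ikaros is deleted. Every animal of both genotypes therefore carries the YFP-Cre, which is driven from the *Foxp3* locus and is active only in cells that express, or have expressed, *Foxp3*. YFP+ cells were sorted from the CD4+ T cells of single young, age-matched mice. The sample labels give the tissue as spleen, while the paper's general purification method names spleen and lymph nodes. One library group of each genotype was left unstimulated (ex vivo), and the other was cultured for 4 h on plate-bound anti-CD3 and anti-CD28, each at 1 µg/ml, which engage the T cell receptor and its costimulatory partner.

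Phosphoinositide 3-kinase (PI3K) is switched on by the T cell receptor, CD28 and the IL-2 receptor, and makes the membrane lipid that recruits the kinase Akt. Active Akt phosphorylates the FOXO transcription factors and drives them out of the nucleus, which shuts off FOXO targets such as *Klf2*, *S1pr1* and *Il7r* that hold T cells in a resting, recirculating state. Treg depend on keeping this pathway low, through lipid phosphatases and Akt phosphatases, and *Foxo1* is needed for Treg function. Sestrins are stress-responsive proteins that restrain mTORC1, the growth-promoting kinase complex downstream of Akt, and sestrin genes are themselves known FOXO targets in several cell types. The protein activity of this pathway is set largely by phosphorylation, which RNA levels do not report.

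Each library had between 8208659 and 20247649 reads on genes, of which between 196 and 13180 fell on any 1 of the 9 genes. Levels are given as scaled TPM, the deposited transcript abundance (TPM) divided by a factor per library that aligns the bulk of the 13318 tested genes, and because TPM is per length, levels of different genes can be compared. The scaling matters here, since 1 repeat-like gene model, *Gm10800*, took 17.7% to 55.9% of all TPM in a library, and without the factors the median tested gene shifted by 0.21 for cKO against WT ex vivo and by -0.30 after stimulation, on the log2 scale. *Foxp3* was present in every group, at mean deposited TPM from 117 to 192. *Ikzf1* fell in cKO Treg to 34.4% of the WT scaled TPM ex vivo (log2 change -1.52, SE 0.11, limma adjusted p = 5.45e-05) and to 40.3% after stimulation (-1.29, SE 0.11, limma adjusted p = 0.000161). One library, WT ex vivo replicate 3, had 179 TPM of the female-specific RNA *Xist*, against 0.62 to 1.36 TPM in the other 11, so it came from an animal of the other sex, and the calls of the 9 genes that change without it are given both ways. The counts of the pathway list without it are given with that list. The 7 B cell markers summed to 254 to 328 deposited TPM in WT and 401 to 473 in cKO libraries ex vivo, nearly all of it *Ighm*, while *Cd79a*, *Ms4a1*, *Ebf1* and *Pax5* were at group means of 1.07 to 3.93 TPM, under the 5 TPM needed for testing. The part of this difference in the ex vivo results was not tested. In such bulk libraries, a change in the share of cells that express a gene and a change in RNA per cell cannot be told apart.

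All 9 genes passed the 5 TPM filter. *Foxo1* and *Sesn3* were the 2 most abundant genes of the 9 in every group except WT ex vivo, where *Pik3cd* ranked between them. In WT Treg ex vivo, *Foxo1* had the highest level, 138 ± 20.1 scaled TPM (SD, n = 3), and its range did not overlap that of *Pik3cd* below it, at 99.2 ± 9.84. *Pik3cd* and *Sesn3*, at 85.6 ± 10.4, overlapped. *Inpp5d* (45.9 ± 5.77) and *Sesn1* (38.2 ± 2.54) followed and also overlapped. The lowest 4 genes, *Foxo3* (29.7 ± 3.24), *Akt1* (26.9 ± 3.91), *Pik3ip1* (22.5 ± 2.23) and *Phlpp1* (20.5 ± 3.11), each overlapped the next. In cKO Treg ex vivo, *Pik3ip1* took the last place with a range under that of *Phlpp1*, and the ranges of *Sesn3* and *Pik3cd* overlapped in the opposite order. After stimulation, *Phlpp1* ranked next after *Foxo1* and *Sesn3* in both genotypes, with no overlap with its neighbours, and *Pik3ip1* was last in both. In stimulated cKO Treg *Sesn1* had moved to the eighth place, below *Foxo3* with no overlap, whereas in stimulated WT Treg it stood above *Foxo3*, also with no overlap.

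**Figure D1:**
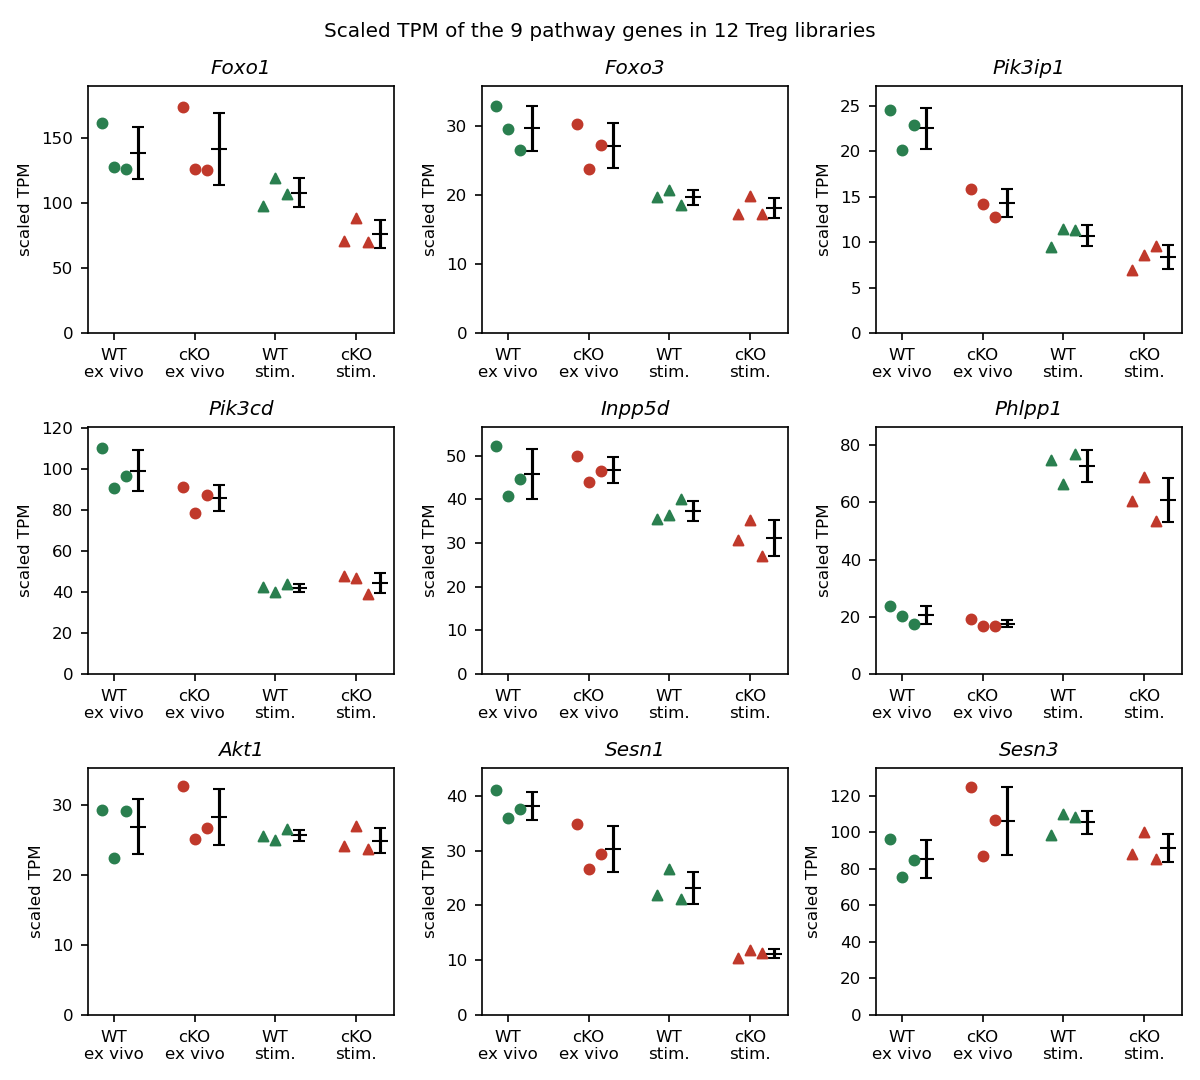
Scaled TPM of each of the 9 genes (vertical axis, starting at 0) in the 4 groups, with 1 point per library and the mean ± SD of 3 libraries in black beside it. *Phlpp1* lay between 53.4 and 77.0 in all 6 stimulated libraries and at or under 23.8 in all 6 ex vivo libraries, and *Sesn1* in stimulated cKO Treg lay between 10.4 and 11.9, under every other library.

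The first comparison asked how loss of Ikaros changed these genes in Treg taken directly ex vivo. Of the 9 genes, 1 was called, and it fell in cKO Treg. Among all tested genes, 1.67% were called lower and 3.62% higher in this comparison, a call being a limma adjusted p under 0.05 over all 13318 genes. The median log2 change of the 9 genes was -0.13, beside -0.007 for all tested genes.

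The gene that fell was *Pik3ip1* (ENSMUSG00000034614, chr11:3230404-3242974 on NCBIM37, + strand), which encodes a transmembrane inhibitor of the PI3K catalytic subunit and restrains T cell activation. Its scaled TPM were 24.6, 20.2 and 22.9 in the 3 WT libraries and 15.8, 14.2 and 12.8 in the 3 cKO libraries. Every cKO library was below every WT library in scaled TPM, and the cKO mean was 63.4% of WT (log2 change -0.62, SE 0.13, limma adjusted p = 0.0178). The TPM as deposited overlapped, with WT replicate 2 at 16.29 and cKO replicates 1 and 2 at 16.68 and 16.75. The call rests on few libraries. It was kept in 8 of the 12 fits that left out 1 library and was lost without WT ex vivo replicate 1 (adjusted p = 0.0612), WT ex vivo replicate 3, the *Xist*-positive library (0.0602), cKO ex vivo replicate 2 (0.0531) or cKO ex vivo replicate 3 (0.0774), with a log2 change from -0.70 to -0.55 over all 12. It was also lost with a 1 TPM filter (-0.64, limma adjusted p = 0.428) and on TPM as deposited (-0.40, limma adjusted p = 0.347). After stimulation *Pik3ip1* was at 9.43, 11.5 and 11.3 in WT and 6.96, 8.54 and 9.53 in cKO Treg, with 1 cKO library inside the WT range (-0.33, SE 0.13, limma adjusted p = 0.143). Quantile normalization called this difference (-0.47, limma adjusted p = 0.0326).

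*Pik3cd* encodes p110δ, the PI3K catalytic subunit typical of lymphocytes and a kind of subunit that the *Pik3ip1* protein restrains (chr4:149023277-149076680, - strand). Its levels ex vivo were 110, 90.9 and 96.6 in WT and 91.1, 78.6 and 87.4 in cKO Treg, which overlapped (log2 change -0.21, SE 0.11, limma adjusted p = 0.345). As a measure that does not depend on library scaling, the ratio of *Pik3ip1* to *Pik3cd* within a library was 0.223, 0.222 and 0.237 in WT and 0.174, 0.181 and 0.146 in cKO Treg ex vivo. The 2 groups did not overlap, and the exact two-sided permutation test gave p = 0.1, the smallest value that 3 libraries against 3 allow (0.171 after Benjamini-Hochberg adjustment over 12 ratio tests). After stimulation the ratio was 0.223, 0.288 and 0.258 in WT and 0.146, 0.182 and 0.245 in cKO Treg, which overlapped (exact permutation p = 0.2, adjusted 0.267).

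*Sesn1* and *Sesn3* leaned in opposite directions ex vivo without passing the test. *Sesn1* was at 41.0, 36.0 and 37.6 in WT and 34.9, 26.7 and 29.5 in cKO Treg, each cKO library below each WT library (log2 change -0.33, SE 0.12, limma adjusted p = 0.149). Its TPM as deposited overlapped between the genotypes. *Sesn3* was at 96.4, 75.7 and 84.6 in WT and 125, 87.2 and 107 in cKO Treg (0.30, SE 0.13, limma adjusted p = 0.272), and was called under quantile normalization only (0.30, limma adjusted p = 0.0492). The ex vivo differences of the remaining 5 genes also missed the threshold, with 95% intervals of the log2 change of -0.32 to 0.37 for *Foxo1*, -0.36 to 0.11 for *Foxo3*, -0.22 to 0.29 for *Inpp5d*, -0.47 to 0.07 for *Phlpp1* and -0.20 to 0.34 for *Akt1*. On TPM as deposited, the sign of *Foxo3*, *Pik3cd* and *Phlpp1* turned positive.

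The second comparison asked the same of Treg stimulated for 4 h. Here too 1 of the 9 genes was called, another one, and it fell in cKO Treg, beside 3.63% of all tested genes called lower and 3.3% called higher. The median log2 change was -0.26 for the 9 genes and -0.035 for all tested genes.

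The gene that fell was *Sesn1* (ENSMUSG00000038332, chr10:41530380-41628230 on NCBIM37, + strand), an inhibitor of mTORC1. The 3 stimulated WT libraries had 21.9, 26.6 and 21.1 scaled TPM, and the 3 stimulated cKO libraries had 10.4, 11.9 and 11.3. The lowest WT library was therefore well above the highest cKO library, with means of 11.2 ± 0.75 in cKO and 23.2 ± 2.93 in WT Treg, a ratio of 48.3% (log2 change -0.98, SE 0.12, limma adjusted p = 0.000708). The call was kept in all 12 fits that left out 1 library, with a log2 change of -1.04 to -0.89. The TPM as deposited were separate as well, at 24.6, 24.8 and 25.6 in WT and 11.0, 10.6 and 8.24 in cKO Treg. With a 1 TPM filter the change was larger, -1.26, but its limma adjusted p of 0.059 missed the threshold.

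*Sesn3*, which encodes a related sestrin (chr9:14080745-14130582, + strand), was not called. Its scaled TPM after stimulation were 98.4, 110 and 108 in WT and 88.1, 100.3 and 85.5 in cKO Treg, overlapping (log2 change -0.21, SE 0.13, limma adjusted p = 0.374), with a change from -0.51 to 0.011 over the 8 alternatives. On TPM as deposited the groups were separate, at 110, 103 and 131 in WT and 93.0, 89.5 and 62.6 in cKO Treg. The ratio of *Sesn3* to *Sesn1* within a library separated all 4 groups. It was 2.35, 2.1 and 2.25 in WT ex vivo, 3.57, 3.27 and 3.62 in cKO ex vivo, 4.48, 4.14 and 5.11 in WT stimulated and 8.45, 8.41 and 7.6 in cKO stimulated libraries. Each of the 4 pairwise comparisons by genotype or stimulation had no overlap and gave the smallest exact permutation p of 0.1 (adjusted 0.171 over 12 tests). The mean log2 ratio was higher in cKO than in WT Treg by 0.64 ex vivo and by 0.84 after stimulation.

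**Figure D2:**
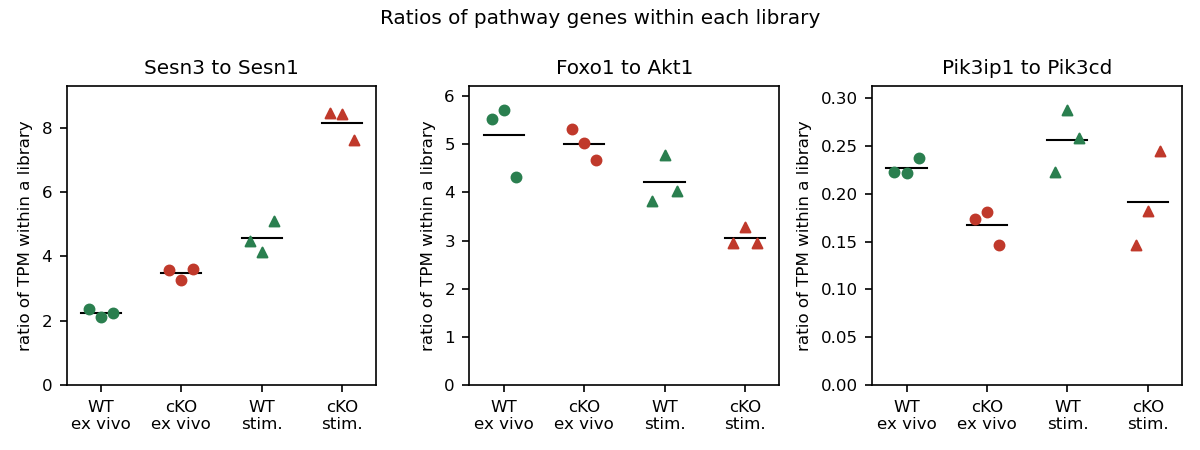
Ratio of the TPM of 2 genes within each library (vertical axis, starting at 0), for *Sesn3* to *Sesn1*, *Foxo1* to *Akt1* and *Pik3ip1* to *Pik3cd*, with 1 point per library in the 4 groups and a line at the mean of 3. The *Sesn3* to *Sesn1* ratio runs from 2.1 in a WT ex vivo library to 8.45 in a stimulated cKO library with no overlap between groups.

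The sequences around the start sites of *Sesn1* and *Sesn3* are shown because 1 of these related genes was called after stimulation and the other was not, and that of *Pik3ip1* because it was the gene called ex vivo. Each is 300 bases from RefSeq (GRCm38.p6), from 250 bases before to 50 bases after a start site, 5′ to 3′ on the strand of the gene, and each was found exactly once in NCBIM37. *Sesn1* has 2 such windows, of which the first starts the NCBIM37 gene model. Capitals mark matches, on either strand, to the FOXO site GTAAACA, which reads as TGTTTAC where it lies on the other strand, and to the Ikaros core TGGGAA, which then reads as TTCCCA. The windows lie at chr10:41530130-41530429 and chr10:41606995-41607294 for *Sesn1*, chr9:14080495-14080794 for *Sesn3* and chr11:3230484-3230783 for *Pik3ip1*, all on the + strand of NCBIM37.
Sesn1, first start: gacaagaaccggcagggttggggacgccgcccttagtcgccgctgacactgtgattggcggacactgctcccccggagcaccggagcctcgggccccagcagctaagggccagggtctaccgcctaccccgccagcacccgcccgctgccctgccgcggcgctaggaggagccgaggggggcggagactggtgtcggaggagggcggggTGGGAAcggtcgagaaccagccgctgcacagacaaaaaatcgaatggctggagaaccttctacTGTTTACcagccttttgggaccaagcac
Sesn1, second start: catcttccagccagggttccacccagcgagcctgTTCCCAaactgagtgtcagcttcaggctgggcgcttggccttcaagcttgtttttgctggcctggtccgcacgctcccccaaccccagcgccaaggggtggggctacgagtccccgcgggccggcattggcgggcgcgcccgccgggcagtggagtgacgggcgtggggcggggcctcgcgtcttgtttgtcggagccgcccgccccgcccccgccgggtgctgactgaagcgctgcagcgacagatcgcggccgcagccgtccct
Sesn3: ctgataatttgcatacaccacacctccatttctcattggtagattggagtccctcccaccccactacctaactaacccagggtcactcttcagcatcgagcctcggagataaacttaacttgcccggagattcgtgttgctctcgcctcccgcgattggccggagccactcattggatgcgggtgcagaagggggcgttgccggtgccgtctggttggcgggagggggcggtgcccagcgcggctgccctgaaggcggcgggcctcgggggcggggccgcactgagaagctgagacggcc
Pik3ip1: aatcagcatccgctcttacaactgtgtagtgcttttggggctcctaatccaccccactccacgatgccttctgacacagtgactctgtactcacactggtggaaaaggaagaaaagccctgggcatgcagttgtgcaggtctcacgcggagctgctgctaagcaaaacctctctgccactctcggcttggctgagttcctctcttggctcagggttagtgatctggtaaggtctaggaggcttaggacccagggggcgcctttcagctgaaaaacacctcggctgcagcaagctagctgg

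The first *Sesn1* window holds an Ikaros core that begins 41 bases before the start and a FOXO match, on the opposite strand, that begins 22 bases after it. Its second window holds an Ikaros core, and the windows of *Sesn3* and *Pik3ip1* hold neither word. Over the 13 windows of the 9 genes, the FOXO site was found in 2, those of *Akt1* and *Sesn1*, and the Ikaros core in 6, those of *Akt1*, *Inpp5d*, *Pik3cd* and *Sesn1*. Among all 32851 promoter windows of the same length, 3.65% hold the FOXO site and 25.6% the Ikaros core. A match shows only that these letters are present, and the absence of one says nothing about binding elsewhere.

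*Foxo1*, the main FOXO factor of T cells (ENSMUSG00000044167, chr3:52072259-52154031, + strand), was lower in every stimulated cKO library than in any stimulated WT library but did not pass the test. Its scaled TPM were 97.4, 119.6 and 107 in WT and 70.8, 88.4 and 69.7 in cKO Treg. The cKO mean was 70.6% of WT (log2 change -0.50, SE 0.16, limma adjusted p = 0.0844), with a 95% interval of -0.85 to -0.16. The fit with voom weights on the reads behind the TPM called it (-0.51, limma adjusted p = 0.0188), the only alternative fit that did. Ex vivo, *Foxo1* was at 161.6, 128 and 126 in WT and 174, 126 and 125 in cKO Treg, which overlap almost completely. The ratio of *Foxo1* to *Akt1* within a library was 3.82, 4.78 and 4.03 in stimulated WT, 2.94, 3.28 and 2.95 in stimulated cKO, 5.53, 5.72 and 4.33 in WT ex vivo and 5.31, 5.02 and 4.68 in cKO ex vivo libraries. The stimulated groups did not overlap (exact permutation p = 0.1, adjusted 0.171), and the ex vivo groups did (exact permutation p = 0.8, adjusted 0.8).

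The remaining stimulated differences between genotypes missed the threshold. *Inpp5d*, which encodes the lipid phosphatase SHIP-1 (chr1:89516887-89617082, + strand), was at 35.6, 36.3 and 40.0 in WT and 30.8, 35.3 and 27.1 in cKO Treg. Its groups did not overlap, and its change was -0.26 (SE 0.12, limma adjusted p = 0.193). *Phlpp1*, a phosphatase that removes an activating phosphate from Akt (chr1:108068329-108290827, + strand), was at 74.8, 66.5 and 77.0 in WT and 60.5, 68.7 and 53.4 in cKO Treg (-0.26, SE 0.12, limma adjusted p = 0.232). For *Foxo3*, *Pik3cd* and *Akt1* the 95% intervals were -0.36 to 0.12, -0.15 to 0.31 and -0.31 to 0.22. *Pik3cd* was called higher under quantile normalization (0.24, limma adjusted p = 0.0497), and its change was negative on TPM as deposited (-0.21) and with a 1 TPM filter (-0.22).

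A further pair of comparisons asked what 4 h of stimulation did to these genes in each genotype. Stimulation moved more of them than genotype did. In WT Treg 1 of the 9 rose and 4 fell, beside 12.7% of all tested genes called higher and 19.3% called lower. In cKO Treg 1 rose and 6 fell, beside 17.3% called higher and 26.5% called lower. The median log2 change was -0.35 in WT and -0.58 in cKO Treg, against 0.002 and -0.01 over all tested genes.

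*Phlpp1* was the gene that rose. It went from 23.8, 20.2 and 17.6 scaled TPM ex vivo to 74.8, 66.5 and 77.0 after stimulation in WT Treg, and from 19.2, 16.9 and 16.8 to 60.5, 68.7 and 53.4 in cKO Treg. The stimulated and ex vivo libraries were far apart in both genotypes, a 3.55-fold rise of the mean in WT (log2 change 1.78, SE 0.12, limma adjusted p = 3.82e-06) and a 3.45-fold rise in cKO (1.73, SE 0.12, limma adjusted p = 3.63e-06). Both calls were kept under every alternative and in all 12 fits that left out 1 library. The difference between the 2 rises was -0.06, with a 95% interval of -0.44 to 0.33.

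*Pik3cd* fell from 110, 90.9 and 96.6 to 42.3, 39.8 and 43.8 in WT Treg (log2 change -1.22, SE 0.11, limma adjusted p = 1.5e-05). In cKO Treg it fell from 91.1, 78.6 and 87.4 to 47.7, 47.0 and 38.9 (-0.93, SE 0.11, limma adjusted p = 6.52e-05). All stimulated libraries lay under all ex vivo libraries. The fall of *Pik3ip1* was of like size, -1.01 in WT (SE 0.13, limma adjusted p = 0.000164) and -0.72 in cKO Treg (SE 0.13, limma adjusted p = 0.00124), so that the inhibitor and the kinase subunit both stood lower after stimulation. The ratio of *Pik3ip1* to *Pik3cd* accordingly overlapped between ex vivo and stimulated libraries in WT (exact permutation p = 0.3, adjusted 0.36) and in cKO Treg (exact permutation p = 0.6, adjusted 0.655).

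*Sesn1* fell with stimulation to 60.7% of its ex vivo mean in WT Treg (log2 change -0.70, SE 0.12, limma adjusted p = 0.000945) and to 36.9% in cKO Treg (-1.35, SE 0.12, limma adjusted p = 9.77e-06). In both genotypes every stimulated library was below every ex vivo library of that genotype. The WT call was lost on TPM as deposited (-0.51, limma adjusted p = 0.0772). *Sesn3* had a log2 change of 0.30 in WT (SE 0.13, limma adjusted p = 0.109) and -0.20 in cKO Treg (SE 0.13, limma adjusted p = 0.236). Quantile normalization called it higher in both, by 0.73 in WT (limma adjusted p = 5.41e-05) and by 0.44 in cKO Treg (limma adjusted p = 0.00122), so its direction in cKO Treg depends on the scaling, while in WT Treg it was positive in all 8 alternatives.

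Of the FOXO factors, *Foxo3* (chr10:41901647-41996561, - strand) fell by 0.56 on the log2 scale in both genotypes, from 29.7 ± 3.24 to 19.7 ± 1.10 in WT (SE 0.11, limma adjusted p = 0.00253) and from 27.2 ± 3.27 to 18.1 ± 1.49 in cKO Treg (SE 0.11, limma adjusted p = 0.00227). The WT call was lost with a 1 TPM filter (-0.81, limma adjusted p = 0.0607) and on TPM as deposited (-0.37, limma adjusted p = 0.209). *Foxo1* fell in cKO Treg, from 174, 126 and 125 to 70.8, 88.4 and 69.7 (log2 change -0.88, SE 0.16, limma adjusted p = 0.00133). In WT Treg its change of -0.35 missed the threshold (SE 0.16, limma adjusted p = 0.112). The scaled TPM of these WT groups did not overlap, but the deposited TPM did, and under quantile normalization the change turned positive (0.13, limma adjusted p = 0.447). *Inpp5d* had a change of -0.58 in cKO (SE 0.12, limma adjusted p = 0.0024) and -0.29 in WT Treg (SE 0.12, limma adjusted p = 0.0819). The cKO calls of *Foxo1* and *Inpp5d* were lost under quantile normalization (-0.25, limma adjusted p = 0.115, and -0.18, limma adjusted p = 0.0592), and without WT ex vivo replicate 2 the WT change of *Inpp5d* was called (-0.37, limma adjusted p = 0.0455).

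*Akt1*, the kinase itself (chr12:113892032-113913095, - strand), was not called by limma in any comparison or alternative. Its lowest adjusted p was 0.277 in the comparisons and 0.0792 over the 8 alternatives, both for stimulation in cKO Treg. Its 12 libraries lay between 22.4 and 32.7 scaled TPM. The 95% intervals for stimulation were -0.32 to 0.21 in WT and -0.44 to 0.10 in cKO Treg.

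**Figure D3:**
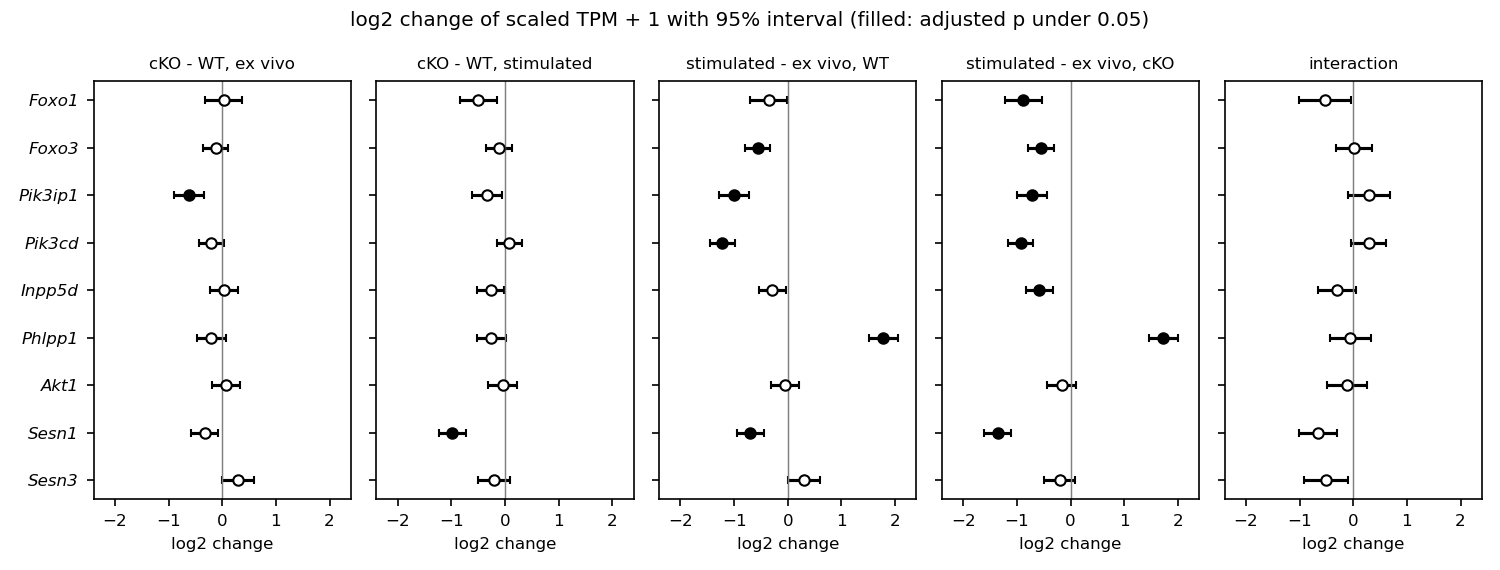
log2 change of scaled TPM + 1 (horizontal axis) of the 9 genes in the 5 comparisons, with 95% intervals; filled points have a limma adjusted p under 0.05. *Pik3ip1* and *Sesn1* are the filled points between genotypes, *Phlpp1* stands at 1.78 and 1.73 for stimulation, and no point is filled for the interaction.

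Several genes were called in 1 genotype or condition and not in the other, so the difference itself was tested as the interaction of genotype and stimulation. By limma 0 of the 9 genes passed, beside 0.451% of all tested genes called higher and 0.653% called lower, and 3 of the 9 had an unadjusted p under 0.05, as had 1926 of the 13318 tested genes. *Sesn1* came closest, with an extra fall in stimulated cKO Treg of -0.65 (SE 0.16, unadjusted p = 0.00205, limma adjusted p = 0.0874). Voom weights on the reads called 1 gene, *Sesn1* (-0.70, limma adjusted p = 0.024), and quantile normalization did so too (-0.74, limma adjusted p = 0.015), while the adjusted p ranged up to 0.639 over the 8 alternatives. The others were *Foxo1* (-0.53, SE 0.22, limma adjusted p = 0.31) and *Sesn3* (-0.51, SE 0.19, limma adjusted p = 0.247). The cKO-only calls of *Foxo1* and *Inpp5d* for stimulation, and the stimulated-only or ex vivo-only calls of *Sesn1* and *Pik3ip1* for genotype, are thus not shown to differ between conditions by the limma fit (*Inpp5d* interaction -0.30, adjusted p = 0.423, and *Pik3ip1* 0.29, adjusted p = 0.483).

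The wider pathway was read from a list of 58 genes by role, 54 of which passed the filter, while *Pik3r3*, *Pik3r6*, *Deptor* and *Foxo6* did not. It includes the 9 genes. Between genotypes ex vivo 2 of the 54 rose and 4 fell, beside 3.62% and 1.67% of all tested genes. After stimulation 1 rose and 6 fell, beside 3.3% and 3.63%. Without the *Xist*-positive library these were 1 and 3 ex vivo and 1 and 7 after stimulation. With stimulation 5 rose and 16 fell in WT Treg, beside 12.7% and 19.3% of all tested genes, and 5 rose and 29 fell in cKO Treg, beside 17.3% and 26.5%. Without the *Xist*-positive library these were 5 and 16 in WT and 5 and 27 in cKO Treg, and the interaction kept a count of 1. Other scalings moved that split, to 11 higher and 14 lower in WT and 9 and 20 in cKO Treg under quantile normalization, and to 4 and 8 in WT and 1 and 32 in cKO Treg on TPM as deposited. The median log2 change of the list after stimulation was -0.16 in WT and -0.41 in cKO Treg, beside 0.002 and -0.01 over all tested genes.

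The FOXO target genes, 13 in the list and all tested, held 6 of the 7 calls between genotypes after stimulation and 2 of the 6 ex vivo. In cKO against WT Treg 2 of them fell ex vivo, beside 1.67% of all tested genes, and 5 fell and 1 rose after stimulation, beside 3.63% and 3.3%. Ex vivo the largest fall was that of *Klf2*, a transcription factor of T cell quiescence and egress, from 1495 ± 281 to 547 ± 57.8 scaled TPM (log2 change -1.44, SE 0.15, limma adjusted p = 0.000483). After stimulation the largest fall was that of *S1pr1*, the receptor for exit from lymphoid organs, from 134 ± 20.3 in WT to 55.3 ± 6.76 in cKO Treg (-1.26, SE 0.18, limma adjusted p = 0.00202). *Bcl2l11*, which encodes the death-promoting protein Bim, fell by 1.03 on the log2 scale (SE 0.13, limma adjusted p = 0.00123). *Tnfsf10*, the gene of the death ligand TRAIL, rose from 7.73 ± 1.11 to 13.4 ± 0.35 (0.73, SE 0.12, limma adjusted p = 0.00527). *Il7r* (-0.54, SE 0.12, limma adjusted p = 0.0266) and *Ccng2* (-0.51, SE 0.12, limma adjusted p = 0.028) also fell, but each call was lost with a 1 TPM filter, with no filter on low values, with a replicate block and in 5 of the 12 fits that left out 1 library, where the adjusted p reached 0.11 and 0.115. With a 1 TPM filter, limma did not call *Klf2* ex vivo (adjusted p = 0.0766) nor *S1pr1* (0.0717), *Bcl2l11* (0.0517) or *Tnfsf10* (0.382) after stimulation, and TPM as deposited lost *Il7r* and *Tnfsf10* as well. With stimulation, 9 of the 13 fell in WT and all 13 fell in cKO Treg, beside 19.3% and 26.5% of all tested genes, led in both by *Klf2* (-3.60 in WT and -2.69 in cKO, limma adjusted p = 2.07e-07 and 1.13e-06). *Ctla4* (-1.85) and *S1pr1* (-1.37) came next in WT, and *S1pr1* (-2.03) and *Irs2* (-1.40) in cKO Treg.

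Among 9 tested PI3K subunits and partners, *Pik3r5*, a regulatory subunit of the G protein-coupled kinase p110γ, fell ex vivo in cKO Treg from 24.9 ± 1.69 to 14.9 ± 0.65 (log2 change -0.70, SE 0.10, limma adjusted p = 0.00369), alongside *Pik3ip1*. *Pik3r5* was also the gene of the list called for the interaction (0.93, SE 0.15, limma adjusted p = 0.0163), since it fell by 1.27 with stimulation in WT but by 0.34 in cKO Treg. Both calls were lost with a 1 TPM filter and on TPM as deposited, and the interaction call also without cKO ex vivo replicate 3 (adjusted p = 0.0583). Among the lipid phosphatases, *Inppl1*, which encodes SHIP-2, rose ex vivo in cKO Treg from 9.34 ± 0.87 to 14.3 ± 0.26 (0.57, SE 0.078, limma adjusted p = 0.00278), while its relative *Inpp5d* had a change of 0.033. *Sesn2*, the remaining sestrin gene, rose ex vivo in cKO Treg from 10.3 ± 0.84 to 14.5 ± 1.77 (0.45, SE 0.10, limma adjusted p = 0.0321). The *Inppl1* call was lost with a 1 TPM filter (limma adjusted p = 0.363) and kept in all 12 fits that left out 1 library. The *Sesn2* call was lost with a 1 TPM filter, with no filter and on TPM as deposited. It was also lost without any 1 of WT ex vivo replicates 1, 2 and 3, cKO ex vivo replicates 1 and 3 and stimulated WT replicate 1, with an adjusted p of up to 0.127. The rises with stimulation included *Akt1s1*, an Akt substrate that inhibits mTORC1, by 0.65 in WT and 0.72 in cKO Treg, and *Eif4ebp1*, an mTORC1 substrate that restrains translation, by 0.66 and 0.60. *Pik3ca*, a ubiquitous PI3K catalytic subunit, rose by 0.56 in WT, and *Mlst8*, a shared subunit of the mTOR complexes, by 0.45 in cKO Treg. None of these rises was called by limma with a 1 TPM filter. On TPM as deposited the cKO rises of *Akt1s1*, *Eif4ebp1* and *Mlst8* were lost too, and that of *Mlst8* was also lost under quantile normalization and without cKO ex vivo replicate 3 (adjusted p = 0.0692).

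**Figure D4:**
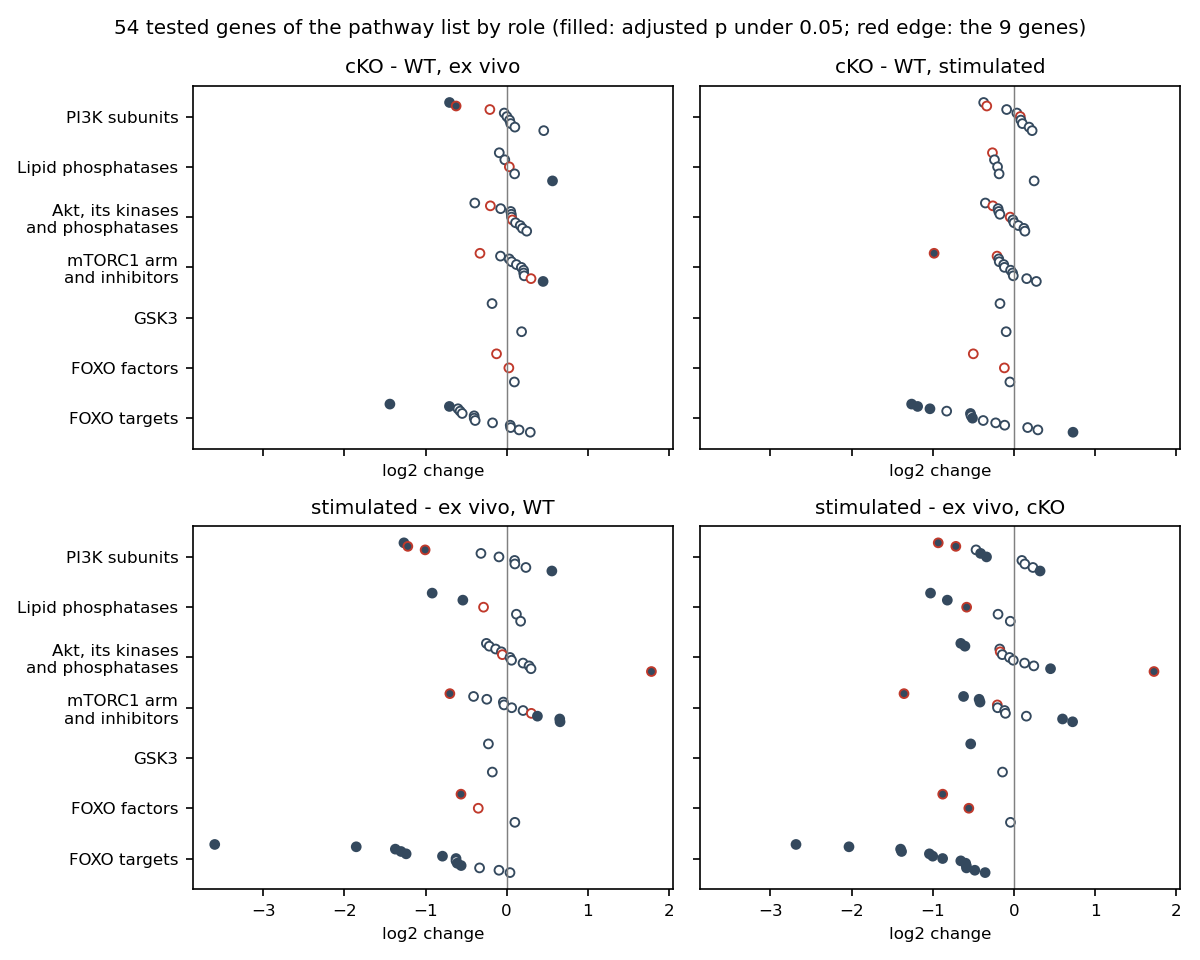
log2 change of scaled TPM + 1 (horizontal axis) of the 54 tested genes of the pathway list, 1 point per gene, in rows by role and in 4 panels by comparison; filled points have a limma adjusted p under 0.05 and red edges mark the 9 genes. The row of FOXO targets reaches -1.44 and -1.26 between genotypes and -3.60 with stimulation in WT Treg, and all 13 of its points are filled for stimulation in cKO Treg.

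The genes whose log2 levels over the 12 libraries were most like those of each of the 9 are given as a description. The 12 points fall into 4 groups of 3, so a high Pearson r can come from the group means alone. *Sesn1* was most like *Galnt6* (r = 0.992) and the FOXO target *S1pr1* (r = 0.99). *Pik3cd* was most like *Tuba4a* (r = 0.994), *Phlpp1* like *Klc1* (r = 0.988), *Foxo1* like *Gramd3* (r = 0.984), *Foxo3* like *Zfp868* (r = 0.982), *Inpp5d* like *Map2k7* (r = 0.979) and *Pik3ip1* like *Rrad* (r = 0.978). The closest matches of *Akt1*, *Rab2a* (r = 0.953), and of *Sesn3*, *Fbxo11* (r = 0.939), were weaker. Within the 9, *Foxo1* ran closest to *Inpp5d* (r = 0.945) and *Sesn1* (r = 0.931), *Phlpp1* ran opposite to *Pik3cd* (r = -0.929), and *Sesn1* and *Sesn3* had r = 0.109.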

How the data were processed

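Treg RNA was depleted of ribosomal RNA, made into strand-specific libraries and sequenced as 51 bp paired ends by the authors. They aligned reads to mm9 with STAR 2.6.0c and counted them per gene on the matching strand with HTSeq 0.6.1. The deposited expression signal is TPM for 36222 genes, each of the 12 libraries summing to 1000000. The authors also deposited log2 values, to which the worth of 1 read had been added, so the reads behind each TPM could be recovered, as a whole number within 0.05 for 99.9988% of values. A second deposited table holds the authors' own fold changes, F statistics, p-values and FDR from edgeR for 6 pairs of groups and was not used.

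A gene was tested if any group mean reached 5 TPM (13318 genes). Scaling factors per library were trimmed means of M-values (30% and 5% trimmed), and log2(scaled TPM + 1) was fitted with limma 3.58.1 in R 4.3.3 (eBayes with trend) over all 12 libraries with the 4 groups. Fold changes are on this scale, which understates changes of low genes. P-values were two-sided and Benjamini-Hochberg adjusted over all tested genes within each of 5 comparisons, with a threshold of 0.05. The script was tested on simulated data. Ratios were compared by exact two-sided permutation in Python 3.11.15 with scipy 1.17.1. The alternatives were filters of 1 TPM or none, TPM as deposited, median of ratios, quantile normalization, a pseudocount of 0.1, a replicate block, voom weights on reads, and leaving out each library. The 9 genes, the pathway and marker lists and the 5 TPM filter were chosen with earlier results of these data known. Other pathway genes were named if among the 3 largest rises or falls called in a comparison, and *Il7r* and *Ccng2* were added after their values were seen. Some genes that this rule names are not reported here. Likeness was Pearson's r of log2 levels, with the 3 closest genes per member. Positions came from GENCODE vM1 of NCBIM37 (mm9). Exons of *Foxo1* and *Pik3ip1* overlap *RP24-337A16.1* and *Gm12592* on the opposite strand, which the strand-aware counting keeps apart. Fragments carried no molecular identifiers. Libraries came from single mice, but the labels do not say whether ex vivo and stimulated cells shared a mouse.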

Additional observations from a re-analysis of the deposited data

How the results depend on the processing

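The genotype calls depended on the scaling and the filter. Of the 9 genes, the number called ex vivo was 1, but 0 with a 1 TPM filter or on TPM as deposited and 2 under quantile normalization. After stimulation it was 1, but 0 with a 1 TPM filter, 3 under quantile normalization and 2 with voom weights. For stimulation in WT Treg it was 5, and 3 on TPM as deposited, and for the interaction 0, and 1 under quantile normalization or voom weights. Of the pathway list, calls ex vivo went from 6 to 0 with a 1 TPM filter, 2 on TPM as deposited and 12 with voom weights. After stimulation they went from 7 to 1 with a 1 TPM filter, 13 under quantile normalization and 12 with voom weights. For stimulation in WT Treg they went from 21 to 13 with a 1 TPM filter and 12 on TPM as deposited, and for the interaction from 1 to 0 with a 1 TPM filter or on TPM as deposited, 3 under quantile normalization and 4 with voom weights. Over all tested genes, the 1 TPM filter gave 57 and 68 calls for genotype against 704 and 923, and its factors shifted the median of the 13318 genes by -0.31 for genotype after stimulation, -0.23 and -0.51 for stimulation in WT and cKO Treg and -0.30 for the interaction. The adjustment with the 1 TPM filter ran over 33873 genes. With no filter and the 5 TPM factors it ran over 36222 genes, and 5 genes of the pathway list were called ex vivo. The reason for the fewer calls with the 1 TPM filter was not tested.

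Among the 9 genes, reversed signs were all of changes that were not called, apart from *Sesn3* for stimulation in cKO Treg. Quantile normalization called that *Sesn3* change at 0.44. In the wider pathway list, the rise of *Mlst8* with stimulation in cKO Treg was called at 0.45. The lowest change of *Mlst8* over the alternatives was -0.031, so a called change reversed its sign there. For the 9 genes, the reversed changes were as follows. On TPM as deposited, ex vivo changes were 0.11 for *Foxo3*, 0.029 for *Pik3cd* and 0.025 for *Phlpp1*, the stimulated genotype change of *Pik3cd* was -0.21, *Akt1* for stimulation in WT was 0.14, and interactions were -0.50 for *Foxo3*, -0.20 for *Pik3ip1* and -0.24 for *Pik3cd*. With a 1 TPM filter, *Pik3cd* after stimulation was -0.22 and the *Foxo3* interaction -0.26. Under quantile normalization, genotype changes after stimulation were 0.079 for *Akt1* and 0.011 for *Sesn3*, changes with stimulation were 0.13 for *Foxo1* and 0.14 for *Akt1* in WT and 0.16 for *Akt1* in cKO Treg, and interactions were 0.10 for *Phlpp1* and 0.026 for *Akt1*. The cause of these differences was not tested. With a pseudocount of 1 the mean log2 ratio of *Pik3ip1* to *Pik3cd* in WT ex vivo was -2.09 in place of -2.14, and that of *Sesn3* to *Sesn1* in stimulated cKO Treg 2.90 in place of 3.03.

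Leaving out 1 library at a time gave 0 to 1 of the 9 genes called ex vivo, 1 in each fit for genotype after stimulation, 5 to 6 for stimulation in WT and 7 in each fit for cKO Treg, 4 to 6 and 5 to 9 genes of the pathway list for genotype ex vivo and after stimulation, and 0 to 2 for the interaction, with 0 without cKO ex vivo replicate 3 and 2 without stimulated cKO replicate 2. Changes ranged ex vivo from -0.13 to 0.14 for *Foxo1*, -0.047 to 0.13 for *Inpp5d* and -0.053 to 0.15 for *Akt1*. *Akt1* ranged from -0.10 to 0.021 for genotype after stimulation and from -0.18 to 0.016 for stimulation in WT. The interactions ranged from -0.079 to 0.12 for *Foxo3*, -0.17 to 0.082 for *Phlpp1* and -0.19 to 0.007 for *Akt1*. Where a group kept 2 libraries, its spread was taken from all groups.

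The groups share replicate numbers, but the labels do not say whether these numbers pair the samples. Correlations of same-numbered libraries' deviations ran from -0.21 to 0.26. They were not set against differently numbered libraries, so they cannot decide this. The *Xist*-positive WT ex vivo replicate 3 was not matched by stimulated WT replicate 3 (*Xist* at 1.05 TPM), so these 2 libraries came from different mice. With a replicate block the calls among the 9 genes were as without it in number, 1, 1, 5, 7 and 0 in the 5 comparisons, with *Pik3ip1* ex vivo at an adjusted p of 0.0424 and *Sesn1* after stimulation at 0.00405. In the pathway list the block gave 6 calls ex vivo, 5 for genotype after stimulation in place of 7, 21 and 33 for stimulation in WT and cKO Treg and 1 for the interaction.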
